A study of Mus musculus with 10 samples.

Results

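Transcripts of 4 lymphocyte genes (Cd3e, Cd3g, Cd8a and Nkg7) and 6 chemokine genes (Ccl5, Cxcl9, Cxcl10, Cxcl16, Ccl2 and Ccl12) were examined in retinas of mice injected in the eye with an adeno-associated virus (AAV) vector. The 10 genes were chosen by name and matched to rows by their symbols in GENCODE mouse release M21, out of 57010 gene rows. All mice were 6 to 8 weeks old and received a vector encoding green fluorescent protein (GFP) into the vitreous, packaged either in the AAV2 capsid (AAV2-GFP, 5 mice) or in the capsid AAV206 (AAV206-GFP, 5 mice). AAV2 is a capsid in common use for the inner retina. The series title names the search for a vector specific to the retinal pigment epithelium, and the comparison here asks how the retinas of the 2 vector groups differ. Retinas were taken 14 days later for bulk RNA sequencing, 1 library per replicate. Strain, sex, vector dose and the promoter driving GFP are not given in the sources used here, and uninjected retinas were not analysed here. Each difference is therefore between the 2 vector groups, and p-values set it against the spread between these samples. All 6 listed rod and cone markers were counted in every library, as the tissue label states, with a summed level of 46300 to 54900 CPM (counts scaled to library size).

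T cells recognise antigen through a receptor whose signal passes through the CD3 chains, to which Cd3e and Cd3g contribute. Cd8a encodes a chain of the co-receptor of cytotoxic T cells, and Nkg7 a granule protein of cytotoxic T and natural killer cells. Chemokines are small secreted proteins that guide leukocytes along gradients through receptors on the responding cells. Cxcl9 and Cxcl10 act on Cxcr3 of activated T cells and are induced by interferons, Ccl5 acts on Ccr1 among other receptors, Ccl2 and Ccl12 recruit monocytes through Ccr2, and Cxcl16 is a membrane-bound ligand of Cxcr6. The healthy retina sits behind a blood barrier and holds few lymphocytes.

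Total counts lay between 10989843 and 12752604 per library. A level of 3 counts, which corresponds to 0.232 to 0.274 CPM, was taken as the floor of detection. It covers counting error only. AAV2-GFP replicate 1 stood apart from the other libraries for immune genes, and AAV2-GFP replicate 4 for interferon-responsive genes, so values are given with and without them. In bulk tissue, fewer cells of a type and less RNA per cell cannot be told apart.

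In the mm10 assembly (GRCm38) Cd3e (ENSMUSG00000032093) and Cd3g (ENSMUSG00000002033) are neighbours on the minus strand of chromosome 9, at 44998740 to 45009627 and 44969572 to 44980431. Cd8a (ENSMUSG00000053977) lies on chromosome 6 from 71373427 to 71379173, and Nkg7 (ENSMUSG00000004612) on chromosome 7 from 43437073 to 43438249. Cxcl9 (ENSMUSG00000029417) and Cxcl10 (ENSMUSG00000034855) are neighbours on the minus strand of chromosome 5, at 92321347 to 92328079 and 92346638 to 92348889. Chromosome 11 carries Cxcl16 (ENSMUSG00000018920) from 70453983 to 70459984, Ccl2 (ENSMUSG00000035385) from 82035571 to 82037453, Ccl12 (ENSMUSG00000035352) from 82101845 to 82103400 and Ccl5 (ENSMUSG00000035042) from 83525778 to 83530518. Exons of Cxcl16 share 552 bases with Zmynd15 on the other strand, those of Cxcl10 share 133 bases with Art3, and those of Cd3e share 135 bases with Gm48719. The strand setting of the counting is not given in the sources used here, so reads in these stretches may belong to either gene. Cxcl16 had decimal estimates in 5 libraries and is uncertain to that extent, while the other 9 genes had whole counts in all libraries.

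The promoters of the neighbours Cxcl9 and Cxcl10 are shown because these genes parted in the libraries with the highest levels, as described further on. Each is the 250 bases before the transcription start, from RefSeq on GRCm38.p6, minus strand, at chr5:92328080-92328329 for Cxcl9 and chr5:92348890-92349139 for Cxcl10. Capitals mark matches on either strand to the interferon-stimulated response element (a pair of GAAA half-sites parted by 2 bases), the gamma-interferon activation site (TTCNNNGAA) and the NF-kB consensus.
Cxcl9: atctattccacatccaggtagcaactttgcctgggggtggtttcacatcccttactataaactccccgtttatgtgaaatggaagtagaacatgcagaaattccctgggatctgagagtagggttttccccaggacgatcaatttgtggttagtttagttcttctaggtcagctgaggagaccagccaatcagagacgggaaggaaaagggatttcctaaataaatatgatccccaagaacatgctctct
Cxcl10: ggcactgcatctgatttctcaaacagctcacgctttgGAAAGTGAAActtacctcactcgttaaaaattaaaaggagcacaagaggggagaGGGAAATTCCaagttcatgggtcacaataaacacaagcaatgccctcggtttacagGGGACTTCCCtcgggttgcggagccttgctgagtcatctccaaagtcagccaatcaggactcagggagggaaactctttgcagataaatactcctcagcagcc
The Cxcl10 window held 1 match to the interferon-stimulated response element, whose first base lies 213 bases before the start, and 2 matches to the NF-kB consensus, at 159 and 103 bases before it. None overlapped another. The Cxcl9 window held no match to any of the 3 motifs, which says only that these letters are absent there. Of 32851 promoters in the table, 2.98% held the interferon-stimulated response element, 7.02% the gamma-interferon activation site and 3.90% the NF-kB consensus. A promoter was found for 7 of the 10 genes. The Ccl12 window held no match to any of the 3 motifs, although Ccl12, like Cxcl10, was highest in AAV2-GFP replicate 4. The Nkg7 window held 1 match to the gamma-interferon activation site and none to the other motifs. Those of Cd3e, Cd3g and Cd8a held no match to any of the 3. The matches are descriptions of sequence, not of binding, and whether they relate to the levels was not tested.

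Of the 4 lymphocyte genes, Cd3e, Cd3g and Nkg7 were found almost entirely in AAV2-GFP replicate 1. Cd3e had 24 counts there (exact Poisson 95% interval 15.4 to 35.7), 0 in the other 4 AAV2-GFP retinas, 2 in AAV206-GFP replicate 2 and 0 in the other 4 AAV206-GFP retinas. Cd3g had 24 counts in AAV2-GFP replicate 1 and 0 in the other 9 libraries. Both CD3 chains therefore reached the floor in 1 library of 10. Nkg7 had 29 counts (19.4 to 41.6) in AAV2-GFP replicate 1 and 0 in all others. A count of 0 has an interval of that kind up to 3.69 counts, so lower levels of these genes in the other retinas were not detectable at this depth.

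Cd8a was also counted elsewhere, with 35.0% of its 60 counts in AAV2-GFP replicate 1. It had 21, 1, 5, 3 and 8 counts in AAV2-GFP replicates 1 to 5 and 7, 4, 9, 1 and 1 in AAV206-GFP replicates 1 to 5, which reached the floor in 7 libraries. The value in AAV2-GFP replicate 1 was the highest, and the other 4 AAV2-GFP retinas lay within the range of AAV206-GFP. The ratio of AAV2-GFP to AAV206-GFP, from summed counts per scaled library size, was 1.67 (exact 95% interval for counting error 0.965 to 2.97). Without AAV2-GFP replicate 1 it was 0.921 (0.459 to 1.82). For Cd3g and Nkg7, AAV2-GFP was at least 7.75-fold and at least 9.37-fold higher against a floor of 3 counts over the AAV206-GFP group, but both groups were at 0 without that library. Folds given as at least a value use that floor for AAV206-GFP and carry no counting error of the AAV2-GFP counts.

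**Figure D1:**
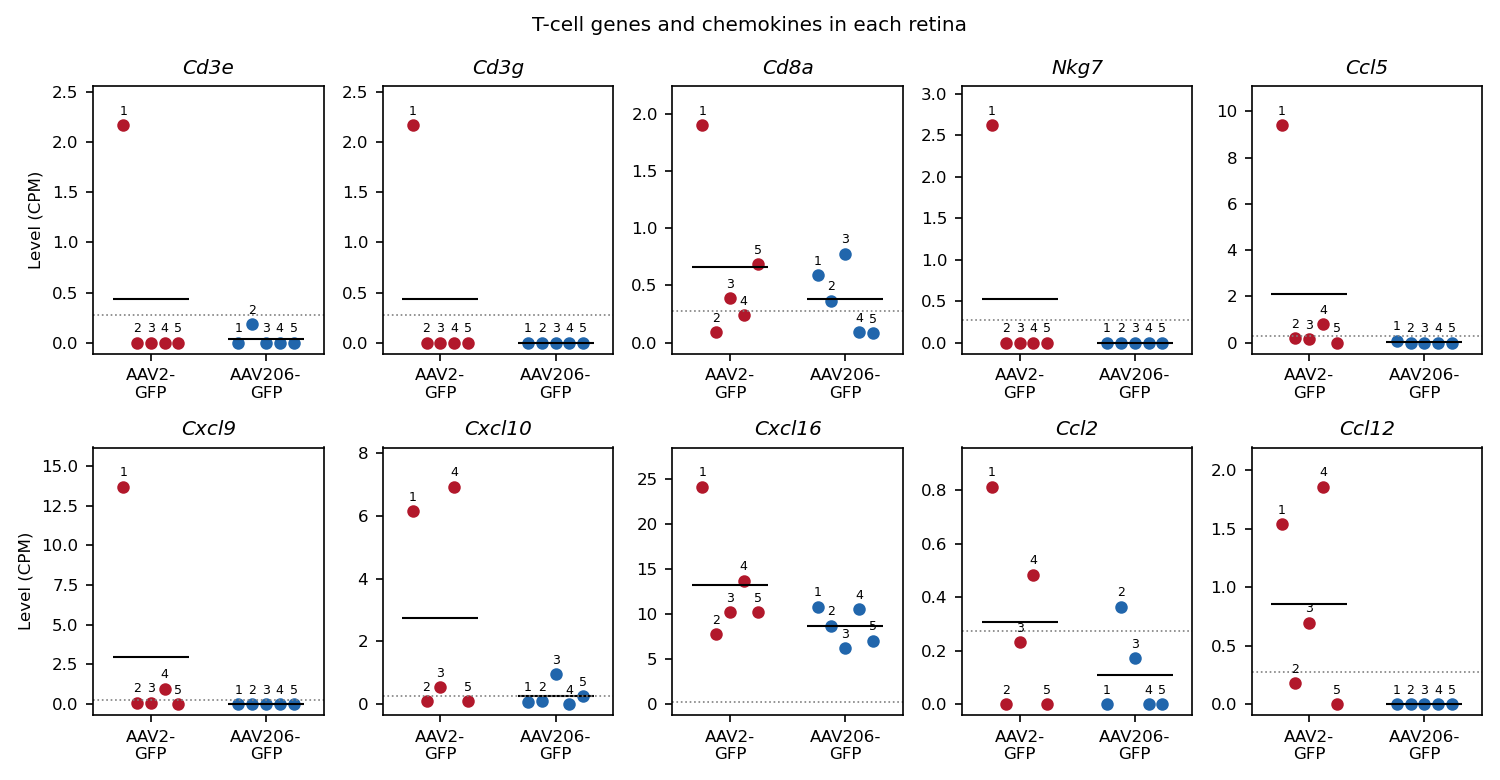
Level of each of the 10 genes in CPM (linear axis, 1 panel per gene) in AAV2-GFP (red) and AAV206-GFP (blue) retinas; each point is 1 library with its replicate number, the black line is the group mean and the dotted line is the highest 3-count floor, 0.274 CPM. AAV2-GFP replicate 1 is the highest library for 8 genes and AAV2-GFP replicate 4 for Cxcl10 and Ccl12.

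Ccl5 and Cxcl9 were highest in the same retina and far lower in AAV2-GFP replicate 4. Ccl5 had 104, 2, 2, 10 and 0 counts in AAV2-GFP replicates 1 to 5 and 1, 0, 0, 0 and 0 in AAV206-GFP replicates 1 to 5. Cxcl9 had 152, 1, 1, 12 and 0 counts in AAV2-GFP and 0 in all 5 AAV206-GFP retinas. Both reached the floor in 2 libraries, which were AAV2-GFP replicates 1 and 4. For Cxcl9, AAV2-GFP was at least 53.6-fold higher against 3 counts over the AAV206-GFP group, and at least 5.56-fold higher without AAV2-GFP replicate 1. For Ccl5, with 1 count in AAV206-GFP, the ratio was 114 (exact 95% interval for counting error 20.1 to 4550). It was 16.7 (2.54 to 705) without that library. Without AAV2-GFP replicates 1 and 4 the ratio of Ccl5 was 6.42 with an interval that includes 1 (0.635 to 316), and Cxcl9 was at or under the floor in both groups.

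Cxcl10 and Ccl12 had their highest level in AAV2-GFP replicate 4, with counting intervals that overlapped those of replicate 1. Cxcl10 had 68, 1, 7, 86 and 1 counts in AAV2-GFP and 1, 1, 11, 0 and 3 counts in AAV206-GFP. AAV206-GFP replicate 3, with 11 counts, lay above 3 of the AAV2-GFP retinas. The ratio of AAV2-GFP to AAV206-GFP was 9.87 (5.90 to 17.7) with all libraries and 0.902 (0.352 to 2.17) without AAV2-GFP replicates 1 and 4. Both intervals cover counting error only, not the spread between retinas. Ccl12 had 17, 2, 9, 23 and 0 counts in AAV2-GFP and 0 in all AAV206-GFP retinas. It reached the floor in 3 AAV2-GFP libraries, and AAV2-GFP was at least 16.5-fold higher, at least 13.5-fold without replicate 1 and at least 5.88-fold without replicates 1 and 4.

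Ccl2, the paralogue of Ccl12 on the same chromosome, was near the floor throughout. It had 9, 0, 3, 6 and 0 counts in AAV2-GFP and 0, 4, 2, 0 and 0 in AAV206-GFP. The order of the AAV2-GFP retinas put replicates 1 and 4 first, but AAV206-GFP replicate 2 exceeded the other 3. The ratio of the groups was 2.91 (1.11 to 8.95), and 0.802 (0.130 to 3.76) without AAV2-GFP replicates 1 and 4. These intervals cover counting error only, not the spread between retinas. Against that spread the adjusted p of Ccl2 was 0.483 (edgeR without the low-count filter).

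Cxcl16 was the 1 gene detected in every retina. Its counts were 266, 86, 132, 170 and 119 in AAV2-GFP and 128, 95, 72, 117 and 83 in AAV206-GFP, or 13.2 ± 6.44 and 8.64 ± 2.03 CPM (SD, n = 5). Replicates 1 and 4 of AAV2-GFP were above all AAV206-GFP retinas, and the other 3 were within their range. It was also the 1 gene of the 10 that passed the filter on low counts. In the edgeR fit of 15539 genes its log2 fold change, AAV206-GFP over AAV2-GFP, was -0.61 with a standard error of 0.26 and did not pass (adjusted p = 0.136, unadjusted p = 0.0315). In that fit 11.2% of genes passed, 5.30% as lower with AAV206-GFP, and 28.0% had an unadjusted p-value under 0.05. Without AAV2-GFP replicate 1 the log2 fold change was -0.28 (adjusted p = 0.355).

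The other 9 genes were under the filter, which asks for about 10 counts in as many libraries as a group holds. They were tested in the same edgeR model fitted to all 28442 genes with any count. In it 4 of the 10 genes, all chemokines, passed as lower with AAV206-GFP, where 3.42% of all genes did and 6.42% passed in either direction. Cxcl9 had an adjusted p of 0.00459, Ccl5 of 0.00299, Ccl12 of 0.00322 and Cxcl10 of 0.0199 (edgeR). The remaining 6 had adjusted p-values of 0.0550 for Nkg7, 0.0677 for Cd3g, 0.101 for Cxcl16, 0.182 for Cd3e, 0.483 for Ccl2 and 0.532 for Cd8a (edgeR). Fitted fold changes of genes with no count in a group depend on the prior count and are not bounds.

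These calls rested on few libraries. Without AAV2-GFP replicate 1 Cxcl9, Cxcl10 and Ccl12 passed (edgeR adjusted p = 0.0331, 0.00343 and 0.000635), and Ccl5 did not (0.103), in a fit that called 8.30% of all genes. Without AAV2-GFP replicates 1 and 4 Ccl12 alone passed (edgeR adjusted p = 0.0395) where 6.00% of all genes were called, and the fitted change of Cxcl10 was 0.18 on the log2 scale. In that fit Ccl12 rested on AAV2-GFP replicate 3, with 9 counts, the only library left that reached the floor for it. The groups overlapped or tied for all 10 genes. Of the 15539 genes that passed the filter 9.78% showed no overlap, so the lack of any among 10 genes is near that share. Only Cxcl16 of the 10 is in that set, and a gene with libraries at 0 in both groups must tie or overlap. In an exact two-sided permutation test of log2(CPM + 1) over the 10 libraries, run for each of the 10 genes, p was 0.0476 for Ccl5, Cxcl9 and Ccl12, a value under 0.05 that 15.6% of all genes with any count also reached. It was 0.135 for Cxcl16, 0.230 for Cxcl10, 0.325 for Ccl2, 0.540 for Cd8a and 1 for Cd3e, Cd3g and Nkg7 (exact permutation test), and after adjustment over all genes none passed. The value for the last 3 was fixed in advance and says nothing about them. Cd3g and Nkg7 had counts in 1 library, so every relabelling gives a difference of the same size. Cd3e had counts in 1 library of each group, and no relabelling gives a smaller difference. The smallest p this design allows is 0.00794.

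**Figure D2:**
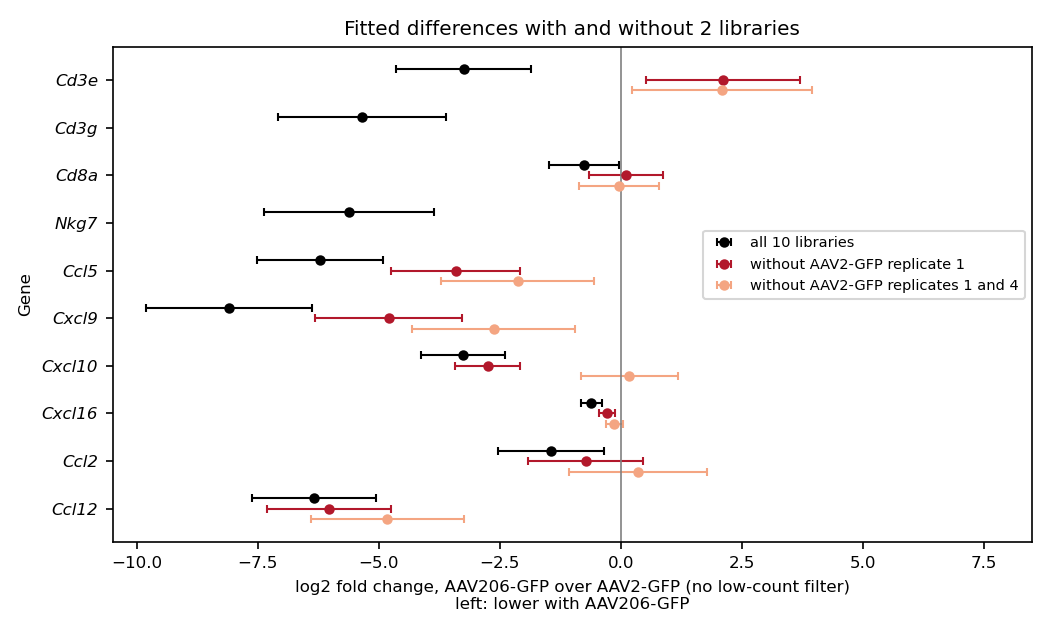
Fitted log2 fold change of AAV206-GFP over AAV2-GFP for each gene (points) with its standard error (bars), from edgeR without a low-count filter, for all 10 libraries and after leaving out AAV2-GFP replicate 1 or replicates 1 and 4. Ccl12 stays at -4.83 without both libraries, Cxcl10 moves to 0.18, and Cd3g and Nkg7 have no counts left once replicate 1 is removed. Without both libraries, AAV2-GFP replicate 3 alone reaches 3 counts of Ccl12.

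AAV2-GFP replicates 1 and 4 differed in which genes they carried. Per kilobase of annotated exon, replicate 1 had 9.80 CPM of Ccl5 (exact Poisson 95% interval 8.00 to 11.9), 7.96 of Cxcl16 (7.03 to 8.98) and 4.56 of Cxcl9 (3.86 to 5.34). Nkg7, Ccl12 and Cxcl10 followed at 2.87, 2.86 and 2.73 CPM per kilobase with overlapping intervals, and Ccl2, Cd3g, Cd3e and Cd8a lay between 0.522 and 0.715. In replicate 4 the order was Cxcl16 at 4.54 CPM per kilobase (3.88 to 5.28), Ccl12 at 3.45 (2.19 to 5.18) and Cxcl10 at 3.08 (2.46 to 3.80). Ccl5 at 0.840 (0.403 to 1.55), Ccl2 at 0.425 (0.156 to 0.926) and Cxcl9 at 0.321 (0.166 to 0.561) were lower. Replicate 4 thus held the Cxcl10 level of replicate 1, 6.94 against 6.15 CPM, with 0.968 against 13.7 CPM of the neighbouring Cxcl9, and no count of Cd3e, Cd3g or Nkg7. These are 2 libraries and not conditions, and the intervals cover counting error only.

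More than 50% of all counts came from AAV2-GFP replicate 1 for 5 of the 10 genes, namely Cd3e, Cd3g, Nkg7, Ccl5 and Cxcl9. This held for 1.44% of the 19574 genes with at least 20 counts in all. The highest library was AAV2-GFP replicate 1 for 8 of the 10 genes, against 11.2% of tested genes, and AAV2-GFP replicate 4 for 2, against 7.94%. Both shares are over genes that passed the filter, to which only Cxcl16 of the 10 belongs. They are thus no measure for genes with counts as low as the others. No gene of the 10 was highest in an AAV206-GFP retina.

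The receptors of the chemokines described here were also highest in AAV2-GFP replicate 1, and each was under the filter. Cxcr3, the receptor of Cxcl9 and Cxcl10, had 33 counts there and 0 in the other 9 libraries, AAV2-GFP replicate 4 included. Ccr2, the receptor of Ccl2 and Ccl12, had 122 counts in AAV2-GFP replicate 1, 10 in replicate 3, 1 in replicate 4 and 0 in the remaining 7 retinas. Ccr1 had 13 counts in AAV2-GFP replicate 1 and at most 4 elsewhere. Cxcr6 had 32 counts in AAV2-GFP replicate 1 and 0 to 12 in the others, with 12, 11, 10, 5 and 7 in AAV206-GFP. Of the 12 chemokine receptors listed, 4 passed the filter and none was called in the edgeR fit, Ackr1, a decoy receptor of vessel walls, at an adjusted p of 0.402 and Cx3cr1, the microglial fractalkine receptor, at 0.0687. Cx3cr1 was called without the low-count filter (edgeR adjusted p = 0.0340) and without AAV2-GFP replicate 2 (edgeR adjusted p = 0.0371), and its log2 change went from -1.20 to -0.50 without AAV2-GFP replicate 1.

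**Figure D3:**
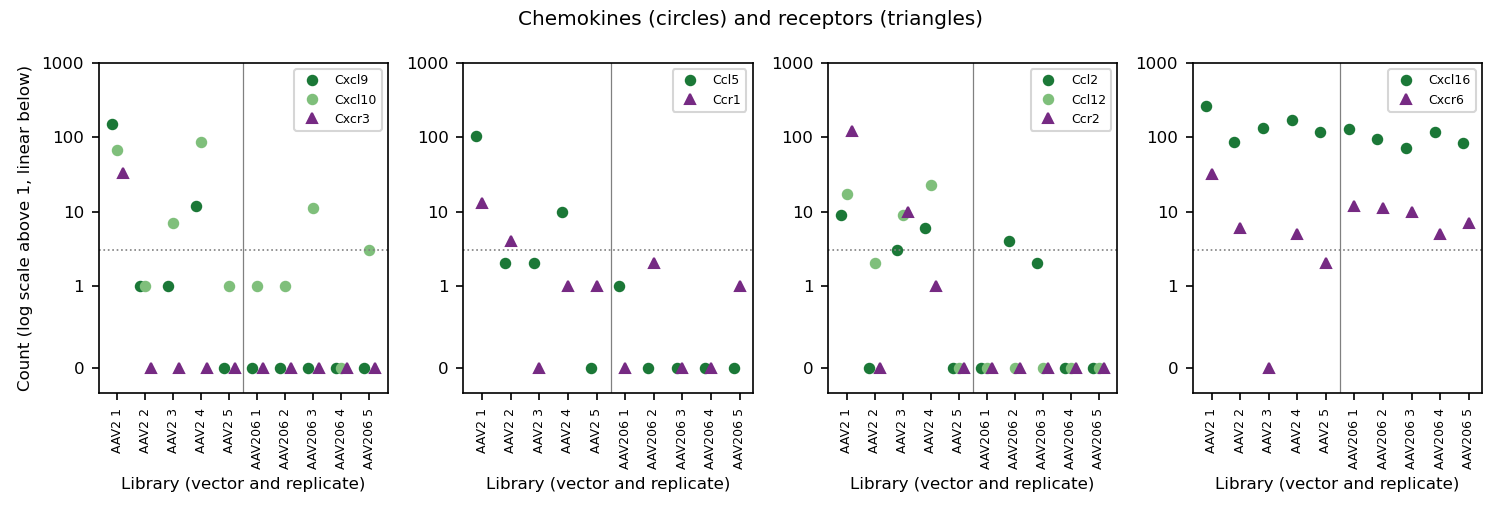
Counts of the chemokines (circles) and of the receptors described above (triangles) in each library, on an axis that is logarithmic above 1 and linear below; the vertical line parts AAV2-GFP from AAV206-GFP and the dotted line marks 3 counts. Cxcr3 is counted in AAV2-GFP replicate 1 alone, while Cxcl10 is also high in AAV2-GFP replicate 4.

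The wider T-cell lists followed the 4 lymphocyte genes. Of 12 further genes of the receptor complex and co-receptors, 12 reached 3 counts in AAV2-GFP replicate 1 and 1 to 4 in each of the other 9 libraries. Trac, the constant region of the receptor alpha chain, had 25 counts in AAV2-GFP replicate 1 and at most 3 elsewhere. Trbc1 and Trbc2, the near-identical beta chain constant regions, had 19 counts each there and at most 1 elsewhere, with decimals in 1 library each. Cd3d had 15 counts against at most 1. Co-receptor genes of both T-cell classes were counted in that retina. Cd4 had 40 counts and Cd8b1, the partner of Cd8a, had 27, against at most 2 and 0 in the other 9 libraries. Markers of other immune cells were also high there, as described further on, and which cells carried Cd4 was not tested. Only Thy1, which ganglion cells also express, and Cd247, the CD3 zeta chain, passed the filter, and neither was called (edgeR adjusted p = 0.193 and 0.822). Cd247 had decimals in 6 libraries and its count is uncertain. It had 45, 0, 0, 18 and 1 counts in AAV2-GFP replicates 1 to 5 and 20, 0, 30, 0 and 36 in AAV206-GFP replicates 1 to 5. AAV2-GFP replicates 1 and 4 thus held nearly all of its AAV2-GFP counts. With both left out it was called as higher with AAV206-GFP (log2 scale 5.26, edgeR adjusted p = 0.0490). With all libraries its log2 change was 0.42.

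Genes of T-cell signalling reached 3 counts for 12 of 12 in AAV2-GFP replicate 1 and for 5 to 9 in the other libraries. Ptprc, the leukocyte surface phosphatase CD45, had 431 counts in AAV2-GFP replicate 1 and 5 to 17 in the other 9. Its log2 fold change was -3.03 (edgeR adjusted p = 0.0764), and 0.40 without that library (edgeR adjusted p = 0.536). It was called without the low-count filter (edgeR adjusted p = 0.0236) and without AAV2-GFP replicate 2 (edgeR adjusted p = 0.0484). Zap70, a kinase of the receptor, had an edgeR adjusted p of 0.111 at a log2 difference of -0.59. None of the 4 signalling genes that passed the filter was called.

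Cytotoxic effector genes reached 3 counts for 10 of 11 in AAV2-GFP replicate 1 and for 1 to 4 elsewhere. Ifng, which encodes interferon gamma and was named after its values were seen, had 4 counts in AAV2-GFP replicate 1 and 0 in all other libraries. Eomes and Tbx21 are transcription factors of effector lymphocytes that some retinal neurons also express, and they were counted in most libraries. Eomes had a log2 fold change of -0.13 (edgeR adjusted p = 0.539), and Tbx21 had 15 counts in AAV2-GFP replicate 1 and 0 to 9 elsewhere.

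Of the 8 checkpoint and regulatory genes, Lag3 alone passed the filter and was called. Lag3 encodes an inhibitory receptor of activated T cells. It was counted in every retina, also in the retinas with no count of Cd3e or Cd3g. Its cell source was not tested. It had 88, 29, 37, 49 and 28 counts in AAV2-GFP and 14, 15, 11, 20 and 23 in AAV206-GFP, or 3.95 ± 2.32 and 1.45 ± 0.419 CPM (SD, n = 5), so the groups did not overlap. It was lower with AAV206-GFP by a log2 change of -1.44 (standard error 0.35, edgeR adjusted p = 0.0162), and of -1.02 without AAV2-GFP replicate 1 (edgeR adjusted p = 0.0304). The call was lost without AAV2-GFP replicates 1 and 4, at -0.86 (edgeR adjusted p = 0.123).

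**Figure D4:**
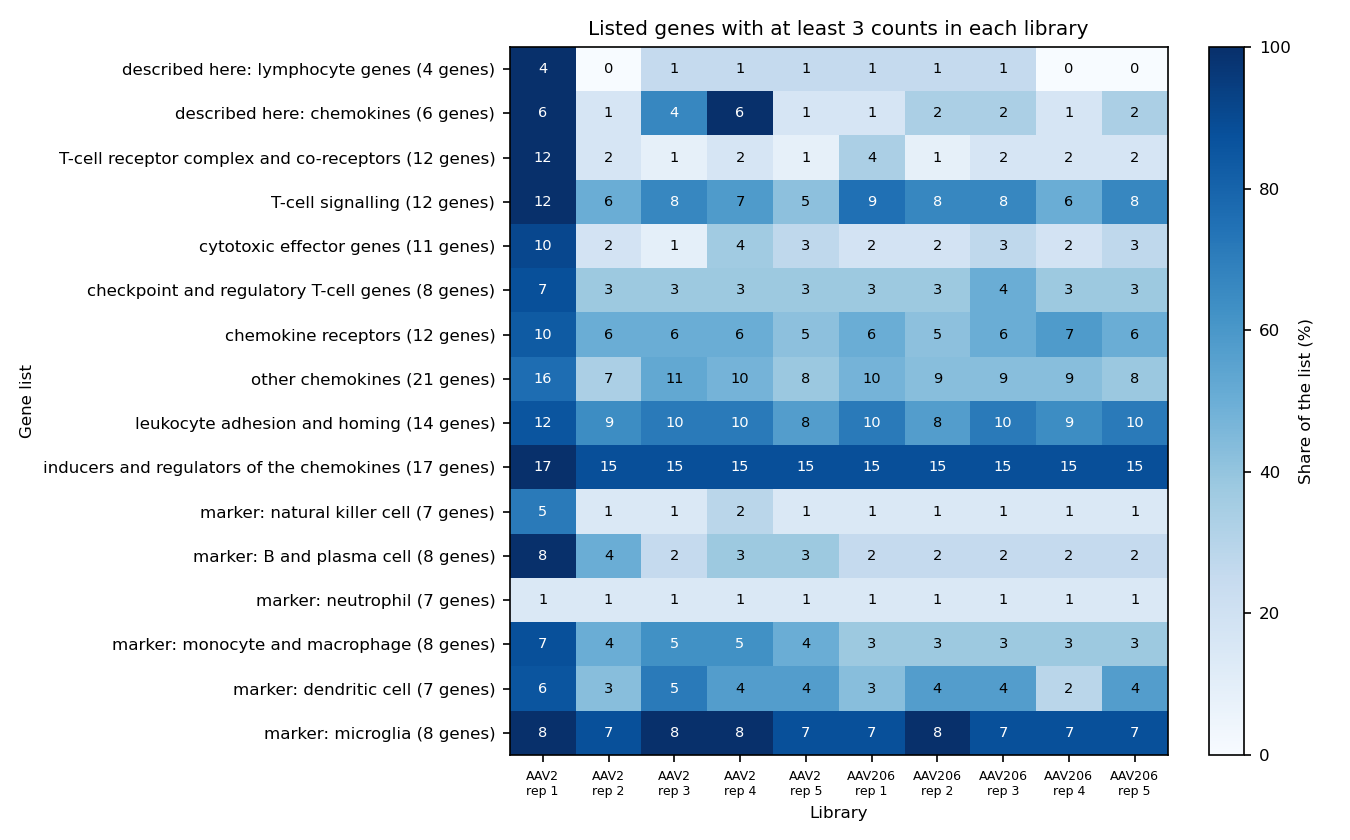
Number of genes of each list with at least 3 counts in each library (numbers), coloured by the share of the list in percent. AAV2-GFP replicate 1 holds 12 of 12 receptor complex genes where the other libraries hold 1 to 4, and AAV2-GFP replicate 4 holds 6 of 6 chemokines with 1 of 4 lymphocyte genes.

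Over 8 pathway lists with 107 genes, 40 passed the filter, of which 8 were called as lower with AAV206-GFP and 0 as higher, against 5.30% and 5.95% of all tested genes. Of the 21 other chemokines, 7 passed the filter and Cx3cl1 was called. Cx3cl1, the neuronal ligand fractalkine, averaged 91.9 ± 7.87 CPM in the AAV2-GFP retinas and 73.3 ± 3.16 CPM in the AAV206-GFP retinas (SD, n = 5). On the log2 scale the change was -0.33 (standard error 0.07, edgeR adjusted p = 0.00589). Unlike the chemokines above it was lowest of the AAV2-GFP group in replicate 1, at 78.9 CPM. Without that library its log2 fold change was -0.38 (edgeR adjusted p = 0.00110). Of the 14 adhesion and homing genes, 6 passed the filter and Selplg, the selectin ligand of leukocytes, was called at a log2 change of -2.13 (edgeR adjusted p = 0.00570). Its change was -1.48 without AAV2-GFP replicate 1 and -1.31 without replicates 1 and 4, and it passed in both (edgeR adjusted p = 0.00501 and 0.0266).

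Among 17 inducers and regulators of the chemokines, 15 passed the filter and 5 were called, all lower with AAV206-GFP. The median log2 fold change of the 15 was -0.24, against -0.00949 over all tested genes. Irf1, an interferon-induced transcription factor, was at 32.0 CPM in AAV2-GFP replicate 1, 20.3 in replicate 4, 4.13 to 4.72 in the other 3 AAV2-GFP retinas and 3.37 to 4.40 in AAV206-GFP. It was thus high in the retinas with high Cxcl10 and close to AAV206-GFP in the others. Irf1 changed by -1.81 on the log2 scale (edgeR adjusted p = 0.0303). It did not pass without AAV2-GFP replicate 1 (edgeR adjusted p = 0.0620), without AAV2-GFP replicate 4 (0.0798) or without any 1 of the AAV206-GFP libraries (0.0555 to 0.0726), and its change was -0.25 without AAV2-GFP replicates 1 and 4.

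Irf9, a subunit of the type I interferon transcription complex, separated the groups even in the remaining retinas. It was at 57.2 CPM in AAV2-GFP replicate 1, 61.8 in replicate 4, 20.4 to 24.5 in the other 3 and at most 19.2 in AAV206-GFP. The log2 change was -1.25 (standard error 0.27, edgeR adjusted p = 0.00821). It was -1.05 without AAV2-GFP replicate 1 and -0.55 without replicates 1 and 4 (edgeR adjusted p = 0.0134 and 0.0170). With robust dispersions Irf9 was not called (edgeR adjusted p = 0.0635). The exact permutation test called no gene of the whole table, so its adjusted p of 0.0812 sets no limit on Irf9 in particular. Lag3, Cx3cl1 and Selplg had the same adjusted p in that test. Stat2, its partner, and Rela, an NF-kB subunit, changed by -0.53 and by -0.33 on the log2 scale (edgeR adjusted p = 0.0337 and 0.0378). Stat2 lost its call without AAV2-GFP replicate 1 or 4 (edgeR adjusted p = 0.0584 and 0.0912) or any 1 of the AAV206-GFP libraries (0.0503 to 0.0805). Rela lost it without AAV2-GFP replicate 1, 3 or 4 or AAV206-GFP replicate 2, 3 or 4 (edgeR adjusted p = 0.0672 to 0.0957).

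Markers of other immune cells moved with the lymphocyte genes in AAV2-GFP replicate 1, and their part in the result was not tested. Of 8 B and plasma cell markers, 8 reached 3 counts there and 2 to 4 elsewhere, with a summed level of 209 CPM against 10.6 to 20.8 in the other 9 retinas. The antibody genes Ighm and Igkc, named after their values were seen, had 996 and 938 counts in that retina and at most 23 and 2 elsewhere. Monocyte and macrophage markers summed to 87.5 CPM in AAV2-GFP replicate 1, 2.14 to 7.58 in the other AAV2-GFP retinas and 1.70 to 4.29 in AAV206-GFP. Microglial markers summed to 158 CPM, against 40.6 to 53.8 and 35.6 to 41.2. Natural killer cell markers reached 3 counts for 5 of 7 genes there and for 1 or 2 elsewhere. Neutrophil markers summed to 6.69 CPM there, all of it Csf3r, the receptor of a granulocyte growth factor, against 0.359 to 1.94 CPM elsewhere, and 1 of 7 reached 3 counts. S100a8 and Ly6g of that list had no count in any library. Dendritic cell markers summed to 30.5 CPM in AAV2-GFP replicate 1 and 9.83 to 16.1 in the other 9 libraries.

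Lists of resident and blood cells also differed in that retina or between the groups, and their part in the result was not tested. Endothelial markers summed to 90.9 CPM in AAV2-GFP replicate 1 and 45.3 to 57.2 elsewhere. Much of that excess was Vwf, at 35.6 CPM against 8.71 to 15.4 in the other libraries. Of the 6 endothelial markers 4 were highest in AAV2-GFP replicate 1, and Emcn and Pecam1 were not. Müller glia and astrocyte markers summed to 1930 CPM in AAV2-GFP replicate 1, against 2040 to 2860 elsewhere. Most of that sum was Glul, at 1420 CPM. Glul and Rlbp1 were lowest in that retina, and Slc1a3, Aqp4, Gfap and Pax2 were not. Erythrocyte markers summed to 67.8 CPM in that retina, 73.3 to 85.8 in the other AAV2-GFP retinas and 101 to 319 in AAV206-GFP. Hba-a1 and Hba-a2 were lowest there, and Hbb-bs, Hbb-bt and Alas2 were not. Of 5 tested erythrocyte markers 4 were called as higher with AAV206-GFP, and both tested lens markers as lower (edgeR).

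The genes most like Cxcl16 over the 10 libraries, by Pearson's r of log2(CPM + 0.5), were Slc15a3 (0.964), Laptm5 (0.941) and P2rx7 (0.931). Each was highest in AAV2-GFP replicate 1, Laptm5 at 40.8 CPM against 2.67 to 6.94 in the other 9 libraries. None was called in the edgeR fit (adjusted p = 0.142, 0.0568 and 0.183). Laptm5 was called without the low-count filter (edgeR adjusted p = 0.0150) and without AAV2-GFP replicate 2, 3 or 5 (0.0277, 0.0452 and 0.0465), and its log2 change went from -1.80 to -0.49 without AAV2-GFP replicate 1. The points share that high library, so these values are a description.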

How the data were processed

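RNA abundance was measured in 10 retinas. The authors deposited estimated counts for each gene with no scaling across samples, and 5.95% of the values carried decimals. Per the submitters' processing notes STAR 2.7.10b, RSEM 1.3.1 and the mm10 assembly were used; the annotation is not given in the sources used here. Libraries were made with an NEBNext Ultra kit and read as 150-base pairs, per the labels' protocols. Expected counts were rounded, filtered with filterByExpr (minimum count 10), scaled by trimmed mean of M values (TMM) and tested with the edgeR quasi-likelihood F test (edgeR 4.0.16, R 4.3.3) over all 10 libraries, with Benjamini-Hochberg adjustment at 0.05. CPM are counts scaled to the TMM-adjusted library size. Positive log2 fold changes are higher with AAV206-GFP, and standard errors were derived from the change and its F statistic. Gene symbols matched 98.4% of the tested genes. The procedure was tested on simulated data. The genes described and the lists were chosen with earlier results of these data known. Genes outside the 10 were named by rule: genes called in a pathway list, up to 5 by smallest p, or else the 2 with the highest mean CPM; the chemokines' receptors; T-cell receptor rows; and the 3 genes most like each tested gene. Results for some of these genes are not reported here. Alternatives covered scaling, filter, test (DESeq2 1.42.0, limma-voom in limma 3.58.1, exact permutation), rounding, prior count, the replicate number as a block and leaving out libraries.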

Additional observations from a re-analysis of the deposited data

Results flagged for a closer look

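In 8 of 16 group results of the 10 genes, 1 library lay far from the other 4 retinas given the same vector: the gap to its nearest neighbour took up a share of the whole range above Dixon's 95% critical value. For continuous values chance would flag about 1 group in 20. That rate does not apply to the 5 flags where the other 4 libraries were at 0, since any count in the fifth is then flagged. In AAV2-GFP replicate 1 these were Cd3e and Cd3g at 2.17 CPM each and Nkg7 at 2.62 CPM, with 0 in the other 4 retinas. In the same library Ccl5 was at 9.40 CPM, with at most 0.807 in the others, and Cxcl9 at 13.7 CPM, with at most 0.968. In AAV206-GFP, Cd3e in replicate 2 (0.182 CPM) and Ccl5 in replicate 1 (0.0841 CPM) rested on 2 counts and 1 count, under the floor. Cxcl10 in AAV206-GFP replicate 3 was at 0.949 CPM, with at most 0.254 in the other 4.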

How the results depend on the processing

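The number of these 10 genes called was 0, with 1 of them tested and 1 at an unadjusted p under 0.05 in edgeR. It was also 0 with other scaling, DESeq2, limma-voom, robust dispersions, unrounded counts or another prior count, and in each analysis that left out 1 library (0 to 0). It was 4 without a low-count filter and 1 (Ccl5) with a mean of at least 1 CPM, a filter that Ccl5 passed only through the AAV2-GFP group. The following settings without the filter were chosen after seeing the data: it was 1 (Ccl12) with limma-voom, where 1202 of 28442 genes were called, 0 with DESeq2, which gave no adjusted p for 7 of the 10, and 0 with the exact permutation test, 3 without AAV2-GFP replicate 1 (2314 of 27879 genes) and 1 without replicates 1 and 4 (1654 of 27557 genes). The number of genes called over the whole table was 1747. It was 985 without AAV2-GFP replicates 1 and 4, 991 to 1912 when 1 library was left out, and 0 in the exact permutation test, both with the filter (3860 genes at an unadjusted p under 0.05) and without it (4446). With the replicate number as a block it was 1085. Same-numbered libraries did not deviate together (correlations -0.0512 to 0.0152), which gave no sign of pairing but cannot exclude it. The labels do not say that the numbers pair samples. Cxcl16 kept its direction and did not pass in any setting. Without the filter the fitted log2 fold change turned positive for Cd3e (2.11 without AAV2-GFP replicate 1 and 2.10 without replicates 1 and 4), Cd8a (0.11 without replicate 1), Ccl2 (0.36 without both) and Cxcl10 (0.18 without both). Ptprc turned positive with and without the filter (0.40 without replicate 1, 0.37 without both) and ranged from -3.34 to 0.40 when 1 library was left out. Cd247 ranged from -0.03, without AAV206-GFP replicate 5, to 1.89. Genes under the filter have no value under the alternatives that kept it. With 3 counts as the floor, depth limits what can be said of Cd3e, Cd3g, Nkg7 and Ccl2 in most libraries.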
